A study of Mus musculus with 6 samples.

Results

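The creatine kinase system was described through 7 genes in hearts of mouse embryos at embryonic day 9.5, with and without a working Arid3b gene. The genes were Ckm, Ckb, Ckmt2 and Ckmt1, which encode the creatine kinases, and Gatm, Gamt and Slc6a8, which make or import creatine. They were chosen by name and found as 9 of 39429 probes by each probe's RefSeq accession, and all 7 were among the 21800 genes measured. The choice was made with the difference between null and wild-type hearts already known, so the changes of these 7 genes are given as a description. No p-value is printed for them, and a count of them past a threshold supports nothing.

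Gene expression was measured on 6 single-colour Agilent arrays. Of these, 3 held RNA of hearts labelled wild type and 3 held RNA of hearts labelled Arid3b-null, and each array held 1 pool of 4 embryos. The dissected tissue was the heart tube and the pharyngeal layers (mesoderm, endoderm) below it. Arid3b encodes a protein that binds AT-rich DNA. The sources used here do not give how the null allele was made, the strain, or any allele that both groups share. Nothing in the labels says whether pools came from separate litters, so the spread between pools may be partly technical.

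Creatine kinase moves a phosphate group between ATP and creatine, and so keeps a store of high-energy phosphate beside the proteins that use ATP. Ckm and Ckb encode the cytosolic muscle and brain forms. Ckmt2 and Ckmt1 encode the sarcomeric and the ubiquitous form of the mitochondrial enzyme, which sits between the mitochondrial membranes and charges creatine with ATP from respiration. Embryonic hearts are known to carry mainly the brain form before the muscle forms take over. Gatm joins glycine to the amidino group of arginine, Gamt methylates the product to creatine, and Slc6a8 carries creatine across the cell membrane.

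Levels are log2 processed signal less the 75th percentile of the same array, and every change is the null mean minus the wild-type mean. Levels of different probes are not compared with each other. On the brightest probe all 7 genes had a negative change, with a median of -0.40, while the median over all 21800 genes was 0.03 and 47.4% of them were negative. The order from the most negative change was Ckmt2, Gamt, Ckb, Ckm, Slc6a8, Gatm and Ckmt1. Of these, Ckmt2, Gamt, Ckb and Ckm had all 3 null pools below all 3 wild-type pools. Over all genes tested the groups did not overlap for 32.9%, of which the null pools were lower for 14.9% and higher for 18.1% of all genes. By limma, 2 of the 7 had an adjusted p under 0.05, Ckmt2 and Gamt, both lower, where 3.81% of all genes were called lower, 6.64% higher and 10.5% were called in either direction. Since the genes were chosen on this comparison, nothing is read from those counts. Normexp background correction subtracts background in a way that keeps values positive, and here a constant of 50 was then added to every signal. With it the changes of Ckm and Gatm turned positive, at 0.23 and 0.10, where the median over all genes was 0.16. That of Ckmt1 turned positive with array weights and without either of 2 pools.

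**Figure D1:**
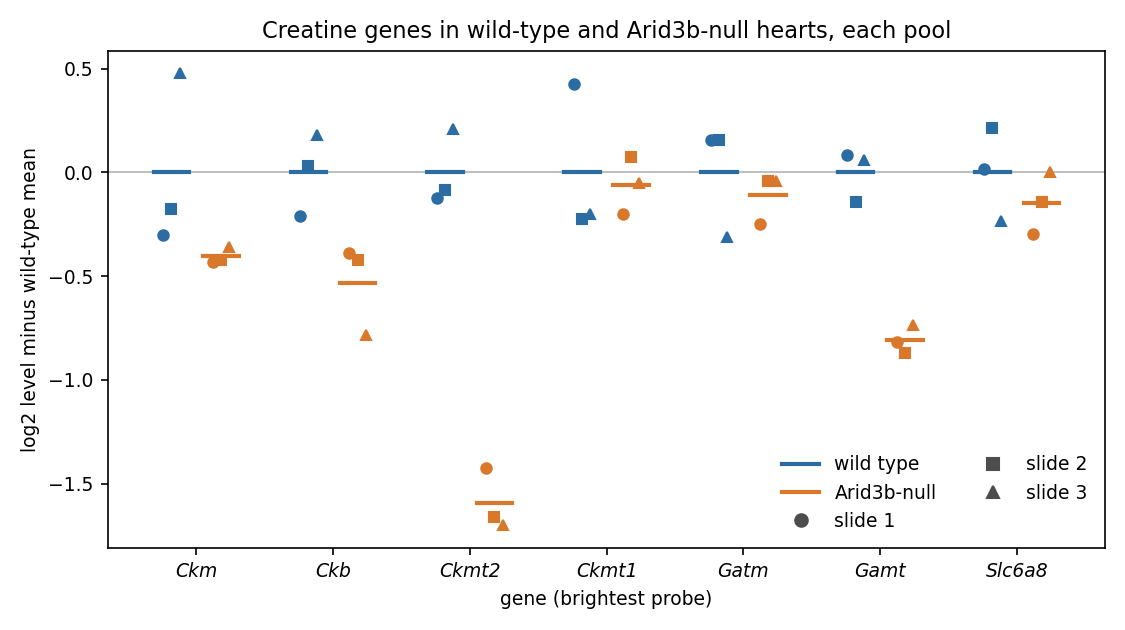
Log2 level of each gene's brightest probe in each pool, minus the mean of the 3 wild-type pools (vertical axis, log2 units), for the 7 creatine genes (horizontal axis). Points are pools, shapes are slides and bars are group means; Ckmt2, Gamt, Ckb and Ckm show no overlap between groups, while Ckmt1, Gatm and Slc6a8 do.

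Facts of the whole set of arrays bear on all values. Between 27136 and 31039 of 43020 non-control spots per array were well above background, and none was saturated. Arid3b, the gene targeted, read 2.91, 3.40 and 3.69 in the wild-type pools and 1.08, 0.52 and 0.45 in the null pools on its brightest probe. The labels do not say which exons the allele lacks, so this probe may lie outside them. It changed by -2.65 (SE 0.26). The other Arid3b probes changed by -4.02 (SE 0.18) and -2.58 (SE 0.28), each well above background on 3 wild-type and 2 null arrays. Pools with the same number shared a slide, and wild type always took the same place on it, so place and genotype cannot be told apart. The 2279 calls split into 1448 up and 831 down in null hearts. Scaling by each array's median made that 1105 up and 1399 down, with the median over all genes at -0.11 in place of 0.03. Ckb was then at -0.67 and Gamt at -0.94. This scaling moves the change of every gene by the same amount, so their place relative to other genes could not alter.

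The stretches just before the start sites of the 4 genes with no overlap are shown. On their brightest probe these genes read lower in all null pools. Each run gives the 250 bases before the start site, 5′ to 3′ on the gene's strand, from RefSeq on build GRCm38.p6. Capitals mark E-boxes (CANNTG), the motif that muscle bHLH factors bind, the TATA motif TATAAA, MEF2 sites, bound by a family of muscle factors, and CArG boxes, bound by serum response factor. The windows are chr13:91876886-91877135 on the minus strand for Ckmt2, chr10:80261013-80261262 minus for Gamt, chr12:111672339-111672588 minus for Ckb and chr7:19410844-19411093 plus for Ckm.
Ckmt2: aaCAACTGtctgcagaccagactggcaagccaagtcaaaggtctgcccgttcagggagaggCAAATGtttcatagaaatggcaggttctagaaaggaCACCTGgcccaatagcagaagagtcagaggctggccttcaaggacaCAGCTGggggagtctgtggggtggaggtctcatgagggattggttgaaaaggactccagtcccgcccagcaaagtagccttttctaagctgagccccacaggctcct
Gamt: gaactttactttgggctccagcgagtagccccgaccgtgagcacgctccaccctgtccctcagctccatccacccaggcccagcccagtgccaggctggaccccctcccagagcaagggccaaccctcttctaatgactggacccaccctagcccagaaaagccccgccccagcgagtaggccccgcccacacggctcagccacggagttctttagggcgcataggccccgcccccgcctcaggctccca
Ckb: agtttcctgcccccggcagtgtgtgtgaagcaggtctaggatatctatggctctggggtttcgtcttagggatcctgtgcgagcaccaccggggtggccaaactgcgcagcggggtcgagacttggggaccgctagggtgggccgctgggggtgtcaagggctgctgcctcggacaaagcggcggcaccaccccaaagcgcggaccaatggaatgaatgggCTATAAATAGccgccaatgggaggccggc
Ckm: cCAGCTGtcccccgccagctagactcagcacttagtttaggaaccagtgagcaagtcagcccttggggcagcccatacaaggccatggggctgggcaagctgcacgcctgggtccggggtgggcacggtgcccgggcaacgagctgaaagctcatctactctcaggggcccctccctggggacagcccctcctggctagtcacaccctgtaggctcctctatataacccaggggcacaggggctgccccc

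The Ckmt2 window held 4 E-boxes, whose first bases lay 248, 189, 153 and 107 bases before the start site. An E-box occurred in 66.2% of 32817 RefSeq windows of this length, and at least 4 of them in 3.84%. The cut of 4 is the number found in the Ckmt2 window, so the 3.84% is a description and no test. Ckm had 1 E-box, 249 bases before its start. Ckb had a MEF2 site beginning 29 bases before its start, and a TATAAA that overlaps it and begins 28 bases before. A MEF2 site anywhere in the window occurred in 2.92% of windows, and a TATAAA anywhere in 12.4%. The Gamt window held none of the 6 motifs searched on both strands, which also included the hypoxia-response core ACGTG (16.6% of windows) and the AT-rich ATTAAA (12.7%). CArG boxes, present in 1.47% of windows, were in none of the 4. Of the 7 genes, 6 had a window in the RefSeq table, and Slc6a8 was the other. Among the windows not printed, that of Gatm held 1 E-box and 1 ACGTG, and Ckmt1, with 2 windows, had a TATAAA and an ATTAAA in one of them. These matches describe letters in these windows and show no binding.

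The mitochondrial form of striated muscle, Ckmt2, fell the most of the 7. It read -4.22, -4.18 and -3.89 in wild-type pools 1, 2 and 3, and -5.52, -5.76 and -5.80 in null pools 1, 2 and 3. The gap between the lowest wild-type and the highest null pool was 1.30, several times the spread within either group. The means were -4.10 ± 0.18 and -5.69 ± 0.15 (SD, n = 3 pools each), a change of -1.60 (SE 0.17), which is 3.02-fold lower. The null minus wild-type difference within slides 1, 2 and 3 was -1.30, -1.57 and -1.91. Of all genes tested, 0.5% had a lower change. In a pool of mixed cells, fewer cells that express a gene and less of its RNA per cell cannot be told apart.

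The Ckmt2 probe was dim. Its processed signal was 38.9, 41.7 and 77.2 in the wild-type pools and 15.5, 11.6 and 9.33 in the null pools, where the lowest signal called well above background was between 6.48 and 8.88 per array. All 3 wild-type arrays and 2 of the 3 null arrays showed it well above background, so that it met the filter of 3 arrays through the wild-type group alone. The size of the fall depended on the background step and on the constant added after it. Normexp started from the median spot signal, not the processed signal, and a constant, the offset, was added to every corrected signal. With an offset of 50, a number within the range of the Ckmt2 signals above, the change was -0.23. With an offset of 5, chosen after seeing the data, it was -0.88. The part of each step in this was not tested. The log2 values in the authors' deposited table gave -1.76.

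The ubiquitous mitochondrial form, Ckmt1, did not separate the groups. Wild-type pools 1, 2 and 3 read 0.62, -0.03 and -0.01 and null pools 1, 2 and 3 read -0.01, 0.27 and 0.14, so that wild-type pool 1 was high and the other 5 lay close together. The means were 0.19 ± 0.37 and 0.13 ± 0.14 (SD, n = 3), with a change of -0.06 (SE 0.22). Without wild-type pool 1 the change was 0.16, without null pool 1 it was 0.01, and with array weights 0.10. The change of Ckmt2 minus that of Ckmt1 was -1.54, and -0.67, -1.87 and -2.06 within slides 1, 2 and 3. The sarcomeric form thus had the more negative change of the pair on each slide, on a dim probe. With normexp at an offset of 50 the changes were -0.23 for Ckmt2 and -0.08 for Ckmt1. At an offset of 5 they were -0.88 and -0.08.

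**Figure D2:**
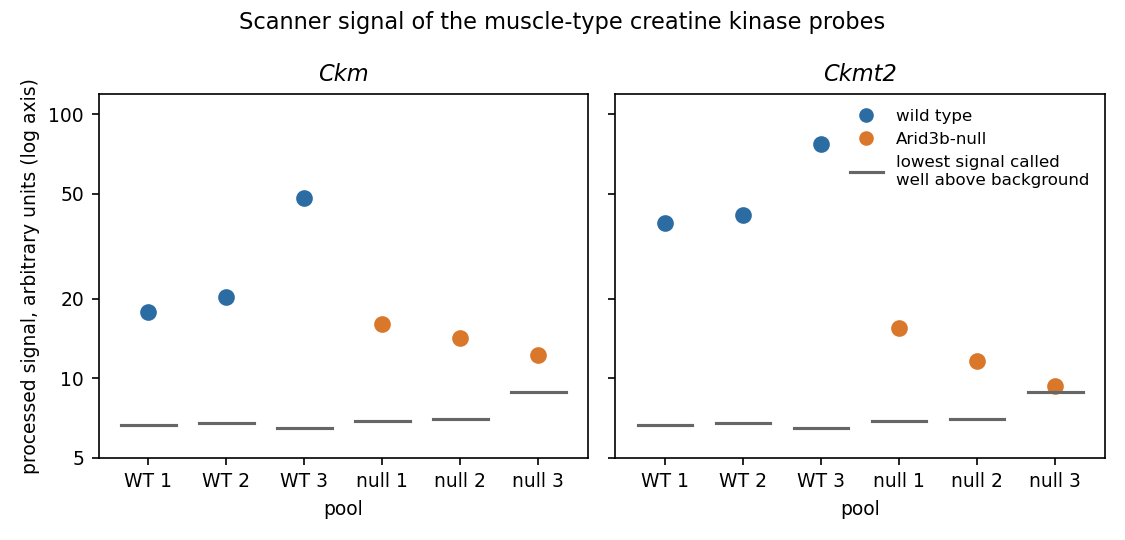
Processed scanner signal (vertical axis, log scale, arbitrary units) of the Ckm and Ckmt2 probes on each array, with a line at the lowest signal called well above background on that array. Ckmt2 falls from 38.9 or more to 15.5 or less, and the null values of both genes lie closer to the line than the wild-type values.

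Ckm, the cytosolic muscle form, was dim in every pool. It read -5.34, -5.22 and -4.56 in wild-type pools 1, 2 and 3 and -5.47, -5.46 and -5.40 in null pools 1, 2 and 3. The groups did not overlap, but only by 0.06, and wild-type pool 3 stood above all others. The change was -0.40 (SE 0.23), and -0.13, -0.25 and -0.84 within slides 1, 2 and 3. Without wild-type pool 3 it was -0.17. It turned positive with normexp, at 0.23 with an offset of 50 and 0.03 with an offset of 5. Its processed signal was 17.9, 20.4 and 48.3 in the wild-type pools and 16, 14.2 and 12.3 in the null pools, well above background on all 6 arrays.

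Ckb, the cytosolic brain form, was lower in the null pools on its brighter probe. That probe read 3.38, 3.61 and 3.77 in wild-type pools 1, 2 and 3 and 3.20, 3.16 and 2.80 in null pools 1, 2 and 3. The groups lay 0.18 apart, and null pool 3 was lowest. The means were 3.59 ± 0.20 and 3.05 ± 0.22 (SD, n = 3), a change of -0.53 (SE 0.19), which is 1.45-fold lower. Slides 1, 2 and 3 gave -0.18, -0.45 and -0.97. Its dimmer probe read 1.79, 2.39 and 2.52 in the wild-type and 1.93, 1.61 and 1.20 in the null pools, a change of -0.65 (SE 0.27). On that probe the groups overlapped, because wild-type pool 1 lay below null pool 1.

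The change of the cytosolic muscle form Ckm minus that of the brain form Ckb was 0.13, and 0.05, 0.20 and 0.13 within slides 1, 2 and 3. With normexp they parted, Ckm at 0.23 and Ckb at -0.59. Both muscle-type genes are dim, and the change of Ckmt2 minus that of Ckm was -1.19, with -1.17, -1.33 and -1.07 within the slides. The values of Ckb and Ckmt2 took the same order over the 6 arrays as the arrays' own 75th percentile, which ran from 9.02 in null pool 3 to 10.16 in wild-type pool 3. This held for 299 of 21784 genes with a value on every array (1.37%), Arid3b among them, and 377 genes took the reverse order. The part of array brightness in these values was not tested.

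Of the creatine supply genes, Gamt, the methyltransferase that completes creatine, was lower in all null pools on both of its probes. The brighter probe read 2.16, 1.93 and 2.14 in wild-type pools 1, 2 and 3 and 1.26, 1.20 and 1.34 in null pools 1, 2 and 3. The groups were 0.59 apart and each was tight. The means were 2.08 ± 0.13 and 1.27 ± 0.07 (SD, n = 3), a change of -0.81 (SE 0.15), which is 1.75-fold lower. Within slides 1, 2 and 3 the differences were -0.90, -0.73 and -0.79, the most even of the 4 genes with no overlap. The other probe read 1.92, 1.75 and 1.88 against 1.05, 1.05 and 1.15, a change of -0.77 (SE 0.15). Over all genes, 4.4% had a lower change. The change lay between -0.94 and -0.76 under the alternatives. It passed the limma threshold in 11 of 18 of them, and in 1 of the 6 with 1 pool left out.

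Gatm, which catalyses the first and rate-limiting step, overlapped between groups. Wild-type pools 1, 2 and 3 read -2.75, -2.75 and -3.22 and null pools 1, 2 and 3 read -3.16, -2.95 and -2.95. Wild-type pool 3 was the lowest of all 6, so no order by group was seen. The change was -0.11 (SE 0.19), and -0.40, -0.20 and 0.27 within slides 1, 2 and 3. The change of Gamt minus that of Gatm was -0.70, with -0.50, -0.53 and -1.06 within the slides.

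Slc6a8, the creatine transporter, also overlapped between groups. It read 1.43, 1.63 and 1.18 in wild-type pools 1, 2 and 3 and 1.12, 1.27 and 1.42 in null pools 1, 2 and 3. Slide 3 ran against the other two, with 0.24 against -0.32 and -0.36. The change was -0.15 (SE 0.18), from 1.41 ± 0.23 to 1.27 ± 0.15 (SD, n = 3). Without wild-type pool 2 it was -0.04.

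**Figure D3:**
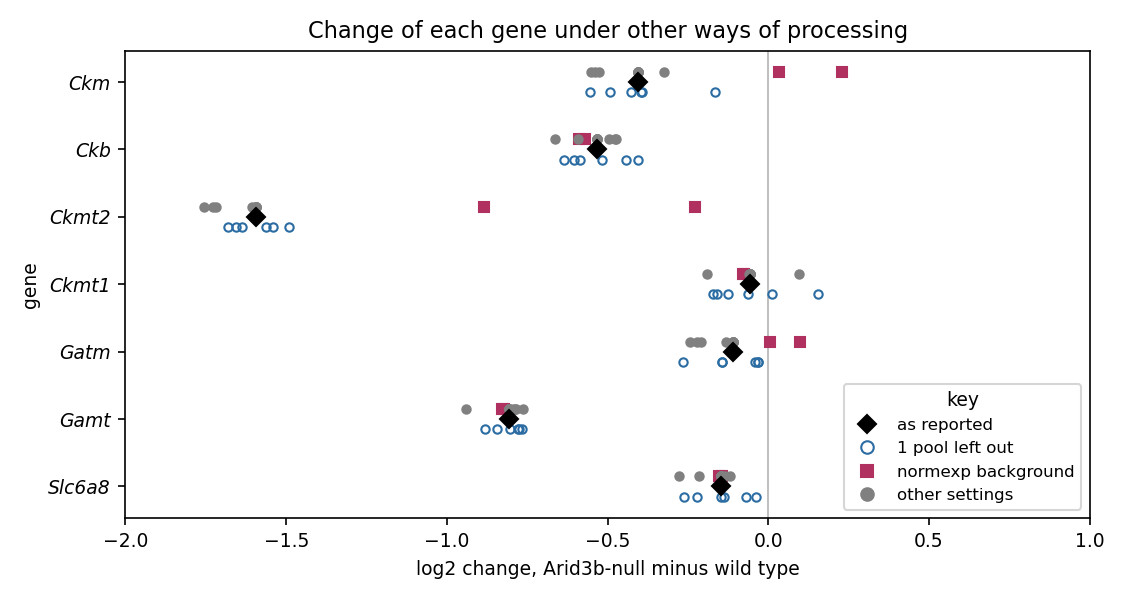
Log2 change, null minus wild type (horizontal axis), of the 7 genes (vertical axis) as reported and under every alternative way of processing, each point being 1 setting. Gamt, Ckb, Ckmt2 and Slc6a8 stay negative throughout. Ckmt2 moves from -1.60 to -0.88 and -0.23 with normexp background correction at added offsets of 5 and 50, under which Ckm turns positive.

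Arginine and glycine are the substrates of Gatm, and S-adenosylmethionine is the methyl donor of Gamt. Of 20 listed genes that supply or use them, 19 were measured, 4 rose, 2 fell and 13 did not pass. The median change of the list was 0.41. Over all genes tested, 10.5% were called, 6.64% higher and 3.81% lower, and each list below is to be read beside those shares. Slc7a3, a cationic amino acid transporter that carries arginine, rose 21.5-fold, a log2 change of 4.43 (SE 0.18, adjusted p = 0.000154). Its level was -3.49 ± 0.15 in wild-type and 0.94 ± 0.22 in null pools (SD, n = 3). Slc7a1, the widely expressed arginine transporter, rose by 0.72 (SE 0.18, adjusted p = 0.0487). On the glycine side, the transporter Slc6a9 rose by 1.04 (SE 0.21, adjusted p = 0.0232), and Shmt2, the mitochondrial enzyme that makes glycine from serine, by 0.96 (SE 0.23, adjusted p = 0.0390).

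Both genes counted as falls in that list handle S-adenosylmethionine. Gnmt, which uses it to methylate glycine, fell by 0.94 (SE 0.22, adjusted p = 0.0360). No null array showed Mat1a, the synthase of adult liver, well above background (adjusted p = 0.00303). With null values raised to the lowest signal called well above background on each array, it was 1.11-fold lower there. That is no firm bound, since all null signals of Ckmt2 exceeded that lowest signal while only 2 null arrays called it. Mat1a entered the test only through the wild-type arrays, where it is high, so its p and its place among the falls support nothing. Its fitted change turned to 0.21 with normexp at an offset of 50 and was -0.22, not called, at an offset of 5. Mat2a, the synthase of most tissues, changed by -0.51 (SE 0.18, adjusted p = 0.116). Ahcy, which clears the spent methyl donor, changed by -0.79 (SE 0.21, adjusted p = 0.0519). Slc16a12, a transporter that lets creatine out of cells, changed by 0.50 (SE 0.33, adjusted p = 0.376). With 1 pool left out in turn, Slc7a3 was called each time. Leaving out pool 2 of either group took the list to 2 calls, and leaving out pool 3 of either group to 3. It had 2 when the slide was fitted as a block, and 2 when dim probes were kept.

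Creatine kinase works beside adenylate kinases, which pass phosphate between adenine nucleotides, and beside the carriers and channels that move nucleotides across the mitochondrial membranes. Of 19 such genes, 16 were measured, 3 rose, 2 fell and 11 did not pass, with a median of -0.09. Ak4, a mitochondrial matrix adenylate kinase, rose by 1.12 (SE 0.23, adjusted p = 0.0250), Ak5 by 1.02 (SE 0.24, adjusted p = 0.0367) and Ak8 by 0.75 (SE 0.16, adjusted p = 0.0276). Ak1, the main cytosolic form of muscle, fell by 0.71 (SE 0.17, adjusted p = 0.0413). Slc25a5, an ADP/ATP carrier of dividing cells, fell by 1.03 (SE 0.21, adjusted p = 0.0250), while the heart and muscle carrier Slc25a4 changed by -0.03 (SE 0.16, adjusted p = 0.929). None of these 5 calls held with the slide as a block, with every probe tested whatever its signal, or without wild-type pool 3 or null pool 2. Leaving out wild-type pool 1 or 2 or null pool 3 gave 1 call, leaving out null pool 1 gave 2, and the authors' value table gave 3.

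Other energy enzymes also come as muscle and other forms. Of 15 listed muscle forms, 14 were measured, 2 rose, 1 fell and 11 did not pass, with a median of 0.11. Cox8b, the muscle form of a cytochrome c oxidase subunit, rose by 1.72 (SE 0.32, adjusted p = 0.0191), and the insulin-responsive glucose transporter Slc2a4 by 1.17 (SE 0.15, adjusted p = 0.00473). Ak1 was the fall. The muscle enolase Eno3 changed by -0.08 (SE 0.16, adjusted p = 0.798) and the muscle phosphoglycerate mutase Pgam2 by -0.13 (SE 0.15, adjusted p = 0.632). Slc2a4 was called under every alternative, while leaving out pool 2 or pool 3 of either group took the list to 1 call.

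Among the other forms of the same enzymes, 16 of 17 were measured, 4 rose, 1 fell and 11 did not pass, with a median of 0.37. The neuronal enolase Eno2 rose 17.6-fold, a log2 change of 4.14 (SE 0.20, adjusted p = 0.000200). Its level was -0.85 ± 0.20 in wild-type and 3.29 ± 0.28 in null pools (SD, n = 3). The liver glycogen phosphorylase Pygl rose by 1.55 (SE 0.16, adjusted p = 0.00217), the platelet phosphofructokinase Pfkp by 1.38 (SE 0.23, adjusted p = 0.0123) and the glucose transporter Slc2a1 by 1.10 (SE 0.20, adjusted p = 0.0167). Slc25a5, counted above, was the fall. Of these, Eno2 and Pygl were called under every alternative, and leaving out null pool 2 took the list to 2 calls and the slide block to 3. Over these 4 lists 17 genes were called and 4 of them, Slc7a3, Slc2a4, Eno2 and Pygl, were called under every alternative run. The lists were drawn up with earlier results of these data known, and Slc7a3, Mat1a and Eno2 were among those results.

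**Figure D4:**
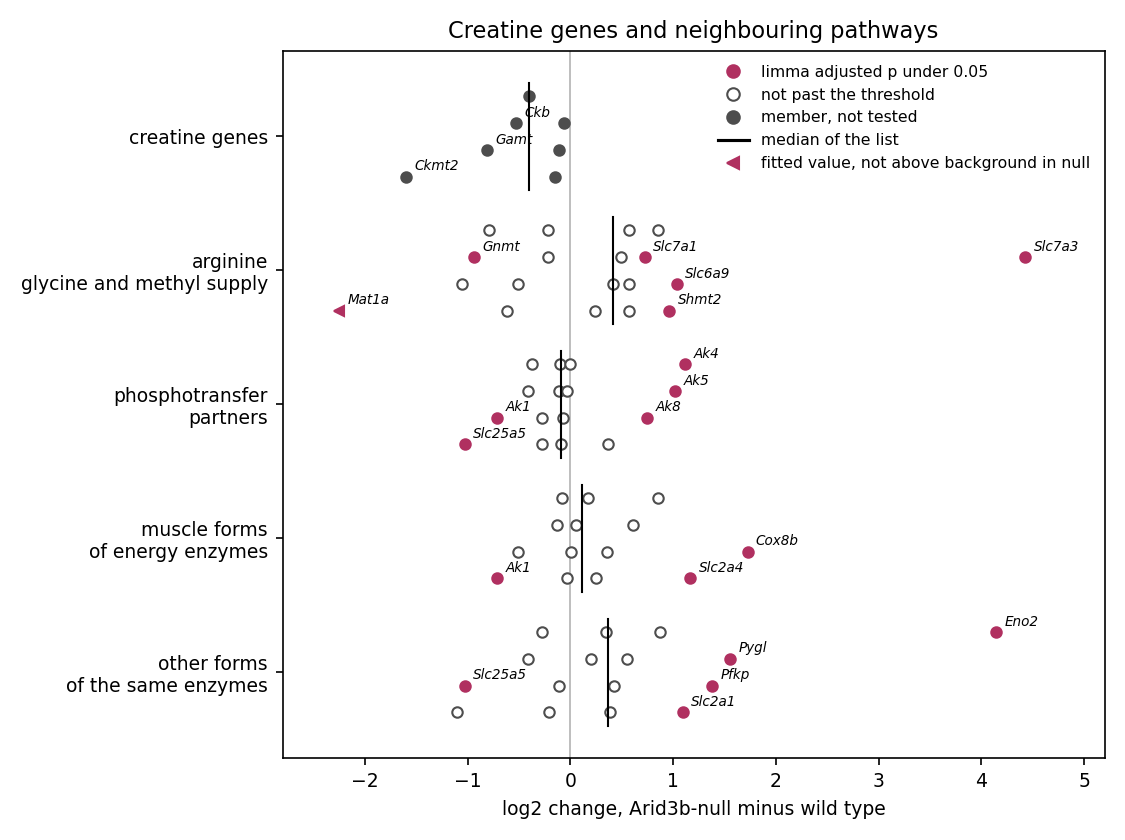
Log2 change, null minus wild type (horizontal axis), of the 7 creatine genes and of the measured genes of 4 related lists (rows), with filled red points for genes past the limma threshold, open points for the others, and a line at each list's median. The creatine genes have a median of -0.40, and the arginine, glycine and methyl list a median of 0.41, with Slc7a3 far to the right.

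Marker lists of several cell types and a list of hypoxia responsive genes were set beside the creatine genes. Over all genes tested, 6.64% were called higher and 3.81% lower, and the counts below are to be read beside those shares. Of 22 cardiomyocyte markers, 21 were measured, all well above background on every array. Nppb (1.82, SE 0.22, adjusted p = 0.00425) and Nppa (1.27, SE 0.18, adjusted p = 0.00764), the natriuretic peptides, rose and 0 fell. Their median change was -0.06, and their summed level, in multiples of the 75th percentile signal, ran from 2217 to 2621 in wild-type and from 2321 to 2923 in null pools. Of 8 smooth muscle markers, Tagln rose by 0.80 (SE 0.15, adjusted p = 0.0181) and 0 fell, with a median of 0.05 and summed levels of 254 to 271 and 272 to 293.

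Of 15 neural markers, 13 were measured, 5 fell and 0 rose, with a median of -1.16 and summed levels of 1.97 to 2.49 in wild-type and 1.08 to 1.31 in null pools. They included the neurofilament Nefm (-2.22, SE 0.26, adjusted p = 0.00349) and the microtubule protein Map2 (-1.46, SE 0.19, adjusted p = 0.00578). The neuronal transcription factor Neurod1 was also among them (adjusted p = 0.00672), and no null array showed it well above background. With null values raised to the lowest signal called well above background on each array, it was 3.37-fold lower, which is no firm bound. Neurod1 entered the test only through the wild-type arrays, so its p and its place among the 5 support nothing. The part of neural tissue in the change of Ckb was not tested. Of 12 hepatic and visceral endoderm markers, whose tissues make creatine, 9 were measured, 3 rose (Rbp4 by 2.37, Hnf4a by 2.27 and Afp by 3.56, with SEs of 0.19, 0.25 and 0.67) and 0 fell. Hnf4a was well above background on 2 wild-type and 3 null arrays. It met the filter only with the null arrays, where it is high, so its place among the 3 supports nothing. The summed level of these markers was 1.28 to 1.68 in wild-type and 3.68 to 5.14 in null pools. Rbp4 and Afp had the highest mean levels of the list in null pools, 0.93 and 0.48, and so weighed most in the null sum. Of the 9 measured, 6 did not pass, and 3 had a negative change, Ttpa (-0.95), Trf (-0.22) and Cubn (-0.01). Gamt was lower in null pools and Gatm overlapped. Alb and Apoa4 were well above background on 0 arrays.

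Of 11 markers of pharyngeal endoderm and epithelium, Krt18 rose by 1.09 (SE 0.16, adjusted p = 0.00866) and Nkx2-1 fell by 0.79 (SE 0.20, adjusted p = 0.0474), with a median of -0.03 and summed levels of 43.2 to 46.7 and 81.2 to 93.9. Most of that sum was Krt18 and Krt8, and without them, a choice made after seeing the values, it was 4.74 to 5.89 in wild-type and 4.85 to 5.17 in null pools. In the erythroid list 0 of 9 measured genes were called, with a median of 1.02 that was 0.29, 2.32 and 0.26 within slides 1, 2 and 3 and summed levels of 280 to 590 and 762 to 1194. Its smallest p belonged to the embryonic globin Hbb-y (0.98, SE 0.28, adjusted p = 0.0674). In the trophoblast list 0 of 5 measured genes were called, and the mean level against wild type was -0.41, 1.07 and 3.31 in null pools 1, 2 and 3. Null pool 1 had a value for 4 of the 5 genes, because its Gcm1 spot was an outlier and left out. Gcm1 (1.89, SE 0.51, adjusted p = 0.0688) and Hand1 (-0.82, SE 0.33, adjusted p = 0.164) had the smallest p, the Gcm1 change resting on 2 null pools, and Prl5a1, Tpbpa and Ctsq were well above background on 0 arrays. Of 12 hypoxia responsive genes, 11 rose and 0 fell, with a median of 2.08, where 6.64% of all genes were called higher. That list was drawn up with earlier results of these data known, so its count is a description. The smallest p values belonged to Car9 (4.45, SE 0.18), Ndrg1 (4.38, SE 0.20) and Ankrd37 (2.67, SE 0.15). The part of these cells and of the hypoxia response in the creatine genes was not tested.

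For each creatine gene, the 3 genes most like it were found by Pearson's r over the 6 arrays, among 13985 or 13986 genes with a symbol that were well above background on every array. The arrays share their scaling and the split into 2 groups, and the values only describe these 6 arrays. Ckmt2 was most like Ap3b2, a neuronal adaptor subunit (r = 0.999), Tagln3 (0.998) and the replication factor subunit Rfc3 (0.998), which changed by -1.43, -2.33 and -1.02. Ckb was most like the potassium channel subunit Kcnmb1 (r = 0.998), Metap2 (0.997) and the DNA repair scaffold Xrcc1 (0.996). Gamt was most like the thymidine kinase Tk1 (0.997), the cohesin subunit Rec8 (0.997) and Eif4a3l1 (0.996), which changed by -0.77, -1.22 and -0.62. For Ckm the nearest were Lime1 (0.994), Gfus (0.988) and Sars2 (0.982), and for Ckmt1 Marco (0.994), Cnr2 (0.989) and Krt73 (0.986). Gatm came nearest to the malate dehydrogenase Mdh1 (0.992), Azi2 (0.991) and Cnep1r1 (0.986), and Slc6a8 to Pgm3 (0.998), Acsl1 (0.997) and Nelfcd (0.997).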

How the data were processed

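Per the file headers, the intensity values are single-colour scans of array design 026655, from which Feature Extraction 10.7.3.1 subtracted background with spatial detrending. The authors also deposited log2 values for 24158 probes. Set against the scanner's log2 signal, each of those columns tracked its own array across probes (r = 0.9994 or more, medians 6.77), so scale and direction are settled, while the normalization used is not stated. Spot flags (outlier, saturated, well above background) were deposited too.

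Log2 processed signal was scaled by the 75th percentile of non-control spots on the array. Outlier spots were dropped and replicate spots averaged. A probe was tested if 3 or more arrays showed it well above background (26848 of 39429), and a gene took its brightest such probe. RefSeq accessions gave a symbol for 26424 of the 39429. The test was limma 3.58.1 (R 4.3.3), adjusted by Benjamini-Hochberg over 21800 genes, two-sided, and called under 0.05. All adjusted p values are from limma. The procedure was tested on simulated data. The array design was annotated on mm9 and the gene table is of another build, so positions are printed only for promoter windows.

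The 7 genes, the 12 lists and the alternatives were chosen with earlier results of these data known. Named were all 7 genes, up to 6 called genes of each pathway list and up to 3 of each marker list by smallest p, and the 3 genes most alike to each member. Mat2a, Ahcy, Slc16a12, Slc25a4, Eno3 and Pgam2 were named in addition, after their values were seen. Where a marker list had no call, the 2 genes with the smallest p were named, except 1 gene that is not reported here. The alternatives are in the closing section.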

Additional observations from a re-analysis of the deposited data

How the results depend on the processing

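The number of genes called, 2279, moved to 1037 when dim probes were kept, 4861 with array weights and 742 with the slide as a block (each slide holding the pools of 1 replicate number), and ranged from 833 to 1753 with 1 pool left out. Of the 7 creatine genes, 2 were called; this was 1 with normexp background correction, with dim probes kept, when a probe had to be well above background on all 6 arrays (Ckmt2 was then not tested) or with the replicate block, and 1 to 2 with 1 pool left out. The gene lost was Ckmt2 with normexp, and Gamt with dim probes kept, with the block and with any 1 pool left out except null pool 1. The arginine, glycine and methyl list had 6 called genes, but 2 with dim probes kept or the block, 12 with array weights and 2 to 5 with 1 pool left out. The phosphotransfer list had 5, but 0 with dim probes kept or the block, 3 in the authors' value table and 0 to 2 with 1 pool left out. The muscle forms had 3, but 6 with array weights and 1 to 3 with 1 pool left out. The other forms had 5, but 8 with array weights, 3 with the block and 2 to 5 with 1 pool left out. Mat1a turned to 0.21 with normexp; the cause was not tested. Pools of the same number did not deviate alike (correlation across genes of deviations from group means -0.41, -0.09 and -0.41), so the numbers were not taken to pair the samples. Normexp with an added offset of 50 moved the median over all genes from 0.03 to 0.16. An offset of 5, tried after seeing the data, moved it to 0.10. Quantile normalization, median scaling, retained outlier spots, averaging over probes, array weights, a robust trended prior and the authors' value table left 2 creatine genes called. Over all genes these settings called from 2184 of 18585 (authors' value table) to 4861 of 21800 (array weights). Since the 7 genes were chosen on this comparison, nothing is read from counts of them. Signal near background limits Ckm and Ckmt2.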
